A study of Mus musculus with 4 samples.

Results

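Respiratory complexes II to V, with cytochrome c as the carrier between complexes III and IV, were measured by 69 array probes of 50 nuclear genes, out of 41174 probes and 21260 gene symbols on the array. Members were chosen by gene symbol alone: Sdha to Sdhd, every symbol starting with Uqcr, Cyc1, Cycs, Cox4 to Cox8 and every symbol starting with Atp5. Of these, 68 probes of 49 genes passed the filter on dim probes, among 39080 probes that passed in all. The member left out was the only Cox8c probe, a testis form of a cytochrome oxidase subunit, which was well above background on 0 arrays in the mutant channel and 1 array in the wild-type channel.

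The tissue was liver of male C57Bl/6 mice aged 3 months. The mutant animals carried a mutant form of Wrn, a helicase of the RecQ family, and drank water with 0.4% vitamin C from weaning. The control animals were wild-type for Wrn and drank untreated water. The labels used here name no allele. Each of 4 two-colour arrays paired 1 mutant liver (Cy5 dye) with 1 wild-type liver (Cy3 dye), all on 1 slide with 1 scan, and the 4 pairs are described as independent biological replicates. The mutant was always in Cy5, and mutants without vitamin C and wild types with it were not analysed here. The effects of genotype, of vitamin C and of the dye therefore cannot be told apart. Of 3 Wrn probes that passed the filter, 1 was higher in the mutant (mean log2 ratio 0.46, adjusted p = 0.014) and the others averaged 0.0022 and -0.10, with adjusted p = 0.98 and 0.26. Which part of the gene the mutation alters is not named in the labels, so these probes do not check the genotype.

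Succinate dehydrogenase (complex II) takes electrons from succinate in the citric acid cycle and hands them to ubiquinone. The cytochrome bc1 complex (III) passes them to cytochrome c, and cytochrome c oxidase (IV) passes them to oxygen, while both pump protons across the inner mitochondrial membrane. ATP synthase (complex V) lets the protons flow back and uses that flow to make ATP. Complexes III, IV and V also hold subunits encoded by mitochondrial DNA, whereas every subunit of complex II is encoded in the nucleus. Hepatocytes depend on this chain for the ATP spent on urea, glucose and protein synthesis.

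For 3 of the genes whose probes differed, the probe sequences are shown first, because the ratio of each gene rests on the stretch of transcript that a probe reads. All are 60-base probes of the array design, written in lower case; whole probes are given where the sequence has an open reading frame and no polyadenylation signal, and 30 bases otherwise. Capitals mark a polyadenylation signal, AATAAA or ATTAAA on the printed strand. The 4 probes of Atp5b (chromosome 10), the catalytic beta subunit of ATP synthase, come in the order of their brightness.

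Atp5b, probe A_52_P328078, last 30 bases: tctctgaagagtatttaaagttttcaataa
Atp5b, probe A_51_P207636: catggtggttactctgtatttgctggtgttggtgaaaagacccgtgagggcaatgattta
Atp5b, probe A_52_P553841: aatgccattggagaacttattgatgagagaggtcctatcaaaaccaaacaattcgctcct
Atp5b, probe A_51_P162373, 30 bases around the signal: tggtaccatcacAATAAAgtgttggcatag

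Uqcrq (chromosome 11) encodes a small subunit of complex III, and Atp5j2 (chromosome 5) encodes subunit f of the membrane part of ATP synthase. The upper probe of each pair is the brighter one.

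Uqcrq, probe A_52_P370484, 30 bases around the signal: aatccacactgtagtcttgaagacAATAAA
Uqcrq, probe A_52_P396522, 30 bases around the signal: tttgaacctcttATTAAAagtagtttctgg
Atp5j2, probe A_51_P224216: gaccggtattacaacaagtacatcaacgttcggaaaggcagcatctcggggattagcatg
Atp5j2, probe A_52_P550474, last 30 bases: aaggaaagactaaagagtttagtacacttc

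Of the 68 tested member probes, 15 were higher in the livers of vitamin C-treated Wrn mutants than in wild-type livers, 1 was lower and 52 did not pass the test. The test asked whether the mean of the 4 log2 ratios differed from 0 (limma), at an adjusted p under 0.05 over all probes. The 15 made up 22.1% of the members tested, beside 6% of all probes called higher, and the lower probe stood beside 6.32% of all probes called lower. The increases were small, between 1.15-fold and 1.56-fold with a median of 1.25-fold. They lay in complexes III (3 of 12 probes), IV (4 of 18) and V (8 of 29), and complex II (0 of 6) and cytochrome c (0 of 3) had none; centred on array medians without loess, each complex and cytochrome c had 2 or more. Differences between complexes were not tested. In bulk tissue, fewer cells of a type and less RNA per cell cannot be told apart.

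The mean ratio was above 0 for 49 member probes and below 0 for 19. Their median log2 ratio was 0.08, against 0.0012 over all probes tested. All 4 arrays gave a positive ratio for 28 members (41.2%, against 21.5% of all probes) and a negative one for 4, beside 18.8% of all probes. The fourth array held the highest of the 4 ratios for 40 members (58.8%, against 20.6% of all probes), and the member medians on arrays 1 to 4 were 0.04, 0.10, 0.03 and 0.22. In the mutant livers the log2 of the summed intensities of the Kupffer markers was 15.45 to 15.93. That of the neutrophil markers was 10.17 to 10.59. Bright probes weigh most in such a sum. The wild-type liver of array 4 had the highest of both sums, 16.34 for the Kupffer markers, against 15.63 to 15.72 in the other wild-type livers, and 11.41 for the neutrophil markers, against 10.33 to 10.59. In that liver S100a9 was at 11.16, S100a8 at 8.24 and Ngp at 7.07, while Ngp was higher in the wild-type liver of array 3, at 7.30. The part of these marker levels in the member ratios was not tested.

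**Figure D1:**
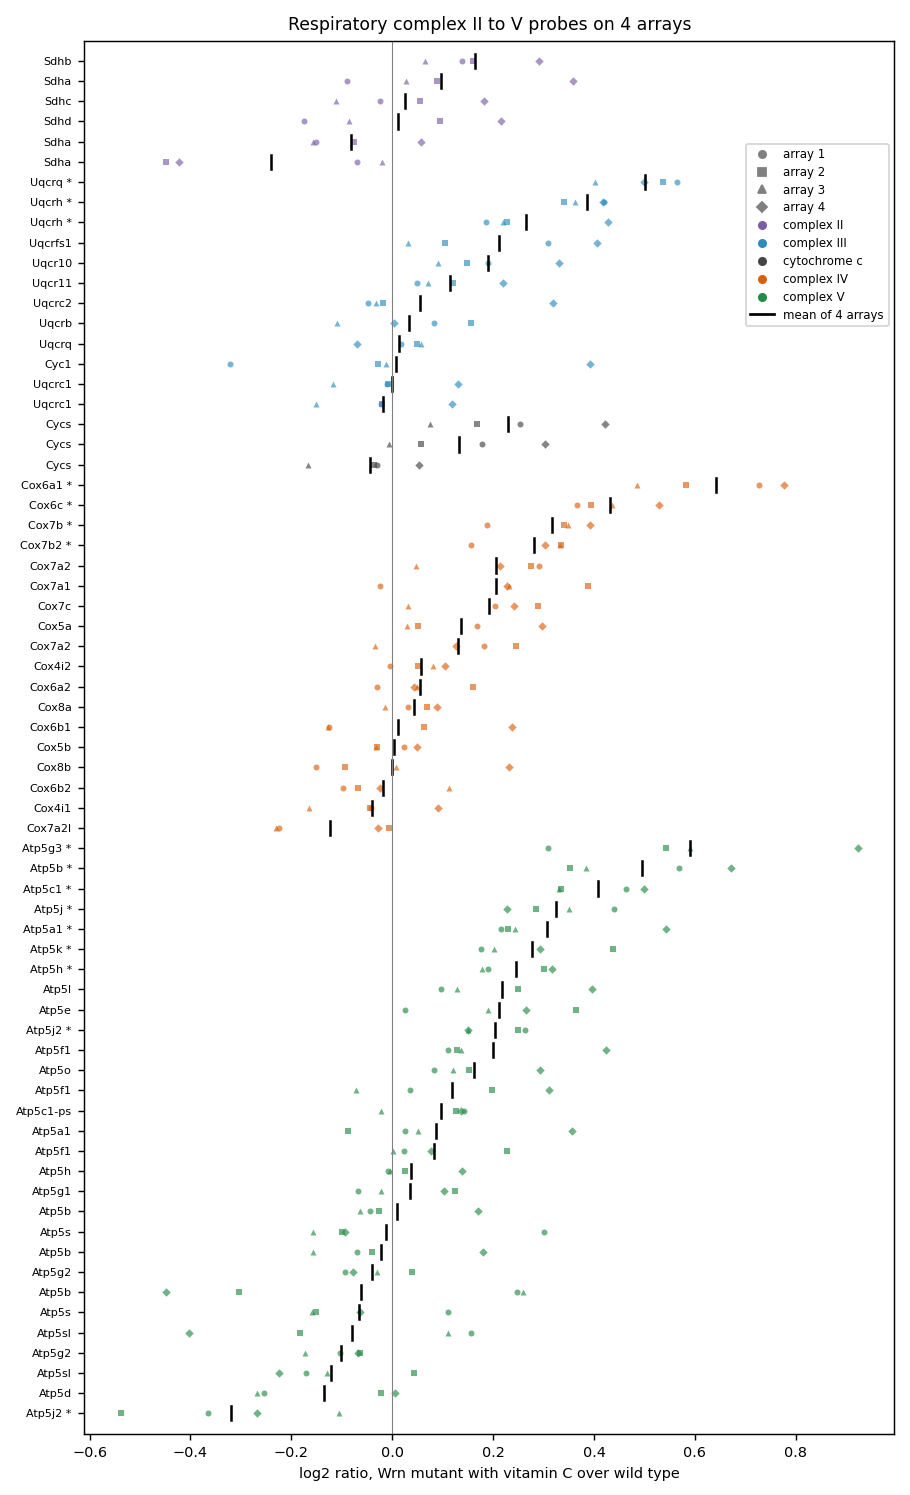
Log2 ratios of Wrn mutant liver with vitamin C over wild-type liver for the 68 tested probes (vertical axis, one row a probe, by complex), on each of 4 arrays (symbols) with their mean (black bar). An asterisk marks the 15 probes higher and the 1 probe lower in the mutant at an adjusted p under 0.05, and the ratios of those 16 keep one sign on all 4 arrays.

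Among marker genes of liver cell types, 4 of 7 hepatocyte probes were higher in the mutant (Alb, Apoa2, Tat and Ttr) and none was lower. Over all probes, 6% were higher and 6.32% lower. Alb, serum albumin, had a mean log2 ratio of 0.83 (adjusted p = 0.011 by limma). The hepatocyte probes that did not pass read -0.28 (Cyp2e1), -0.13 (Apoa1) and 0.09 (Cps1). The log2 of the summed intensities of the hepatocyte markers was 20.18 to 20.26 in the mutant channel and 19.72 to 19.97 in the wild-type channel. These sums did not overlap. Over all single probes with levels on every array, 2.88% had the mutant livers all above the wild-type livers. Of 9 endothelial probes 2 were lower (Clec4g and Kdr), while the other Clec4g probes read 0.05 and 0.17. Among 10 stellate probes 2 were lower, both for Col1a1, whose remaining probe read 0.06. Among 7 cholangiocyte probes 1 was lower, for Sox9, whose other probes read 0.02 and -0.25. Of 8 skeletal muscle probes 1 was lower, for Tnnt3, whose other probe read 0.0057. None of the Kupffer, lymphocyte, neutrophil, erythroid, fat or pancreas probes passed in either direction. The log2 of the summed intensities of the erythroid markers on arrays 1 to 4 was 17.58, 18.79, 19.13 and 17.88 in the mutant livers. In the wild-type livers it was 18.95, 18.69, 17.31 and 18.19. The part of these shifts in the member ratios was not tested.

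Of all 39080 probes, 7945 were at an unadjusted p under 0.05 (limma) without being called. In complex II these were 2 of 6, Sdhb above 0 and an Sdha probe below 0. The complex had 0 called probes, and 2 called higher (Sdhb and Sdhd) where arrays were centred on their median. Sdhb, its iron-sulphur subunit, had the highest mean of the complex, with log2 ratios of 0.14, 0.16, 0.07 and 0.29 on arrays 1 to 4. All were above 0, but the mean of 0.16 ± 0.09 (SD, n = 4) did not pass the test (adjusted p = 0.094 by limma). The lowest was 1 of 3 probes of Sdha, the flavoprotein that oxidises succinate, at -0.07, -0.45, -0.02 and -0.42 (mean -0.24 ± 0.23, adjusted p = 0.11). Its other probes averaged 0.10 and -0.08, so the 3 probes of Sdha lay on both sides of 0. Sdhc and Sdhd, which anchor the enzyme in the membrane and bind ubiquinone, averaged 0.03 and 0.01, with 95% intervals from -0.12 to 0.17 and from -0.16 to 0.19.

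In complex III, 2 genes carried the 3 called probes. Uqcrh, the hinge protein at the site where cytochrome c docks, was higher on both of its probes. The first gave log2 ratios of 0.42, 0.34, 0.36 and 0.42, with channel levels of 17.15 to 17.23 in the mutant livers and 16.77 to 16.81 in the wild-type livers (log2 intensity). The 4 mutant livers all stood above the 4 wild-type livers, and the mean was 0.39 ± 0.04 (adjusted p = 0.014). The second Uqcrh probe, at 0.19, 0.23, 0.22 and 0.43, averaged 0.27 ± 0.11 (adjusted p = 0.037), and its channel levels did not overlap either.

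Uqcrq had the highest mean of complex III on the brighter of the probes printed above. That probe gave ratios of 0.56, 0.54, 0.40 and 0.50, with levels of 16.95 to 17.08 in the mutant livers and 16.45 to 16.58 in the wild-type livers. Its mean was 0.50 ± 0.07 (1.41-fold, adjusted p = 0.011), with no overlap between the channels. The dimmer Uqcrq probe gave 0.02, 0.05, 0.06 and -0.07 (mean 0.01, 95% interval -0.10 to 0.13). It carries the ATTAAA signal and is annotated to a transcript other than the RefSeq mRNA.

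The other 8 complex III probes that missed the test ranged from -0.02 to 0.21. The highest of them was the Rieske iron-sulphur protein Uqcrfs1, at 0.21 ± 0.17 with adjusted p = 0.10. The lowest was the second probe of the core protein Uqcrc1, at -0.02, -0.02, -0.15 and 0.12, and the first Uqcrc1 probe averaged -0.0014. Cyc1, the haem-bearing cytochrome c1, spanned -0.32 on array 1 to 0.39 on array 4 around a mean of 0.0075. Uqcr10, Uqcr11, Uqcrb and Uqcrc2, which are small or core subunits, averaged 0.19, 0.11, 0.03 and 0.05. With arrays centred on their median, these 4, Uqcrfs1 and the first Uqcrc1 probe passed, at 0.35 to 0.64.

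Cycs, the somatic cytochrome c, was read by 3 probes that differed. Its highest gave 0.25, 0.17, 0.08 and 0.42 (mean 0.23 ± 0.15, adjusted p = 0.067), and a second probe that shares 40 bases with it averaged 0.13. The third and brightest gave -0.03, -0.04, -0.17 and 0.05, for a mean of -0.05 ± 0.09. None of the 3 passed the limma test. At an unadjusted p under 0.05 alone there was 1, beside 7945 of all 39080 probes. With arrays centred on their median, 2 of the 3 were called higher. Cyct, the testis form of cytochrome c, was at -0.09, -0.16, -0.10 and 0.02 (mean -0.08, adjusted p = 0.32).

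Cytochrome oxidase held the member of largest increase, Cox6a1, the ubiquitous form of a small subunit at the dimer face of the enzyme. Its log2 levels were 18.28, 18.20, 18.34 and 18.26 in the mutant livers of arrays 1 to 4, against 17.53, 17.61, 17.84 and 17.48 in the wild-type livers. The lowest mutant liver stood above the highest wild-type liver. The deposited ratios were 0.73, 0.58, 0.48 and 0.78, with a mean of 0.64 ± 0.13 (1.56-fold, 95% interval 0.49 to 0.79, adjusted p = 0.011).

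Cox6c, a small nuclear subunit, gave ratios of 0.37, 0.39, 0.44 and 0.53 (mean 0.43 ± 0.07, adjusted p = 0.013). Its channel levels overlapped, at 15.85 to 16.30 in the mutant and 15.32 to 15.92 in the wild type, while the paired ratios stayed close together. Cox7b, which is needed for assembly of the enzyme, was higher at 0.19, 0.34, 0.35 and 0.39 (mean 0.32 ± 0.09, adjusted p = 0.023). Its testis-type relative Cox7b2 gave 0.16, 0.33, 0.33 and 0.30 (mean 0.28 ± 0.08, adjusted p = 0.028). The Cox7b2 probe was dim, at the 27.0th percentile of brightness, and the channel levels of both Cox7b and Cox7b2 overlapped between the groups.

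The tissue forms of the other subunits did not pass the test on the deposited ratios. Cox6a2, the heart and muscle partner of Cox6a1, was at -0.03, 0.16, 0.05 and 0.04 (mean 0.06, 95% interval -0.07 to 0.18). Cox4i1, the general form of subunit 4, was at -0.04, -0.04, -0.16 and 0.09 (mean -0.04), and its oxygen-regulated form Cox4i2 was at -0.0041, 0.05, 0.08 and 0.10 (mean 0.06). The Cox4i1 mean turned to 0.50 and passed where arrays were centred on their median without loess.

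Cox7a1, the muscle form of subunit 7a, gave -0.02, 0.39, 0.23 and 0.23 (mean 0.21 ± 0.17, adjusted p = 0.10). The liver form Cox7a2 gave 0.29, 0.27, 0.05 and 0.21 on one probe (mean 0.21, adjusted p = 0.064) and 0.18, 0.24, -0.04 and 0.13 on another that shares 48 bases with it (mean 0.13). Cox7a2l, a relative of Cox7a2, had the lowest mean of complex IV, at -0.22, -0.0071, -0.23 and -0.03 (mean -0.12 ± 0.12, adjusted p = 0.21). None of these passed, but with arrays centred on their median both Cox7a2 probes did, at 0.54 and 0.39.

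Cox6b1 gave -0.13, 0.06, -0.13 and 0.24 (mean 0.01), and its testis form Cox6b2 gave -0.10, -0.07, 0.11 and -0.02 (mean -0.02). Cox8a gave 0.03, 0.07, -0.01 and 0.09 (mean 0.04), and its muscle form Cox8b gave -0.15, -0.09, 0.0082 and 0.23 (mean -0.0015). All 4 probes had ratios on both sides of 0. Cox5a, Cox5b and Cox7c, which have a single probe each, averaged 0.14, 0.0025 and 0.19 and did not pass. With arrays centred on their median, Cox5a (0.68), Cox5b (0.52), Cox7c (0.32) and Cox8a (0.56) did.

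ATP synthase had 9 called probes. Atp5c1, the gamma subunit that turns inside the catalytic head, gave ratios of 0.46, 0.33, 0.33 and 0.50. Its levels were 16.81 to 17.00 in the mutant livers and 16.31 to 16.52 in the wild-type livers, with no overlap, and its mean was 0.41 ± 0.09 (adjusted p = 0.016). Atp5c1-ps, listed as its pseudogene, averaged 0.10 ± 0.08 and did not pass (adjusted p = 0.25), except with arrays centred on their median (0.39). Transcripts of a gene and its pseudogene can share hybridisation, and how signal divides between them was not tested. The probes of Atp5c1 and Atp5c1-ps share no stretch of 20 bases.

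Atp5b was higher on only 1 of its 4 probes, the brightest, whose closing bases are printed above; where arrays were centred on their median, the second brightest passed too, at 0.38. The brightest probe gave 0.57, 0.35, 0.38 and 0.67, with levels of 17.34 to 17.59 in the mutant livers and 16.67 to 17.01 in the wild-type livers (mean 0.49 ± 0.15, adjusted p = 0.016). The second brightest gave -0.04, -0.03, -0.06 and 0.17, and the next gave -0.07, -0.04, -0.16 and 0.18. Their means were 0.0094 and -0.02, with 95% intervals of -0.13 to 0.15 and -0.18 to 0.14 that lay below the interval of the brightest probe, 0.33 to 0.66. The dimmest gave 0.25, -0.30, 0.26 and -0.45, a spread that left its mean of -0.06 ± 0.37 uninformative.

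The brightest 3 Atp5b probes are annotated to the same RefSeq mRNA. The 2 of them that did not pass have open reading frames across all 60 bases, and the one that was higher has none in any of the 3 forward frames. It shares 21 bases with a probe without a gene name that averaged 0.19 (adjusted p = 0.10). Across all members, however, 4 of the 15 called-higher probes (26.7%) had no open frame, against 22.6% of the other members and 20.6% of all probes.

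The alpha subunit Atp5a1 was higher on its brighter probe, at 0.22, 0.23, 0.24 and 0.54 (mean 0.31 ± 0.16, adjusted p = 0.038), where array 4 stood well above the other 3. Its other probe, at 0.02, -0.09, 0.05 and 0.36, averaged 0.09 and did not pass, except with arrays centred on their median (0.53). Atp5d and Atp5e, the delta and epsilon subunits of the central stalk, averaged -0.13 and 0.21 and did not pass, with adjusted p = 0.21 and 0.078. With arrays centred on their median Atp5e passed, at 0.71.

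The proton-carrying ring is built from the c subunit, which 3 genes encode with the same mature protein. Atp5g3 passed, at 0.31, 0.54, 0.59 and 0.92 (mean 0.59 ± 0.25, 1.51-fold, adjusted p = 0.020), the highest mean in complex V. Its levels were 16.11 to 17.13 in the mutant livers and 15.79 to 16.58 in the wild-type livers, and they overlapped because both livers of array 1 were low. Atp5g1 averaged 0.03, with a 95% interval of -0.10 to 0.17. The 2 probes of Atp5g2 averaged -0.04 and -0.10, with adjusted p = 0.61 and 0.20. With arrays centred on their median, Atp5g1 (0.38) and 1 probe of Atp5g2 (0.37) passed too, beside 1.11 for Atp5g3. No probe of these genes shares 20 bases with a probe of another.

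In the peripheral stalk, which holds the head still, Atp5j (coupling factor 6) gave 0.44, 0.28, 0.35 and 0.23 (mean 0.32 ± 0.09, adjusted p = 0.022), with no overlap between mutant and wild-type levels. Atp5h (subunit d) gave 0.19, 0.30, 0.18 and 0.32 on one probe (mean 0.25 ± 0.07, adjusted p = 0.034). Its other probe, which was nearly as bright and shares 20 bases with the first, averaged 0.04, with a 95% interval of -0.08 to 0.16, and passed only with arrays centred on their median (0.53). Atp5o (the oligomycin sensitivity protein) averaged 0.16 and the 3 probes of Atp5f1 (subunit b) averaged 0.20, 0.12 and 0.08, and none passed. With arrays centred on their median, Atp5o (0.65) and the brightest Atp5f1 probe (0.64) did.

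Among the small membrane subunits, Atp5k (subunit e) gave 0.18, 0.44, 0.20 and 0.29 (mean 0.28 ± 0.12, adjusted p = 0.036). Atp5l (subunit g) averaged 0.22 ± 0.14 and did not pass (adjusted p = 0.069), except with arrays centred on their median (0.42). The probes of Atp5j2 (subunit f) passed in opposite directions, both narrowly. The bright probe, annotated to the RefSeq mRNA, gave 0.26, 0.25, 0.15 and 0.15 (mean 0.20 ± 0.06, adjusted p = 0.046).

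The dim Atp5j2 probe, at the 22.6th percentile of brightness and annotated to another transcript, gave -0.36, -0.54, -0.11 and -0.27 (mean -0.32 ± 0.18, adjusted p = 0.041). Its levels were 7.66 to 8.09 in the mutant livers and 7.80 to 8.40 in the wild-type livers, and they overlapped. This was the only member probe called lower. With no filter on dim probes and by the authors' deposited adjusted p, neither Atp5j2 probe passed (adjusted p = 0.054 for the higher and 0.050 for the lower without the filter). The lower call was also lost with an intensity trend (adjusted p = 0.052). The Atp5s and Atp5sl probes averaged -0.12 to -0.01, and none passed; the RefSeq gene table lists these genes as Dmac2l and Dmac2.

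**Figure D2:**
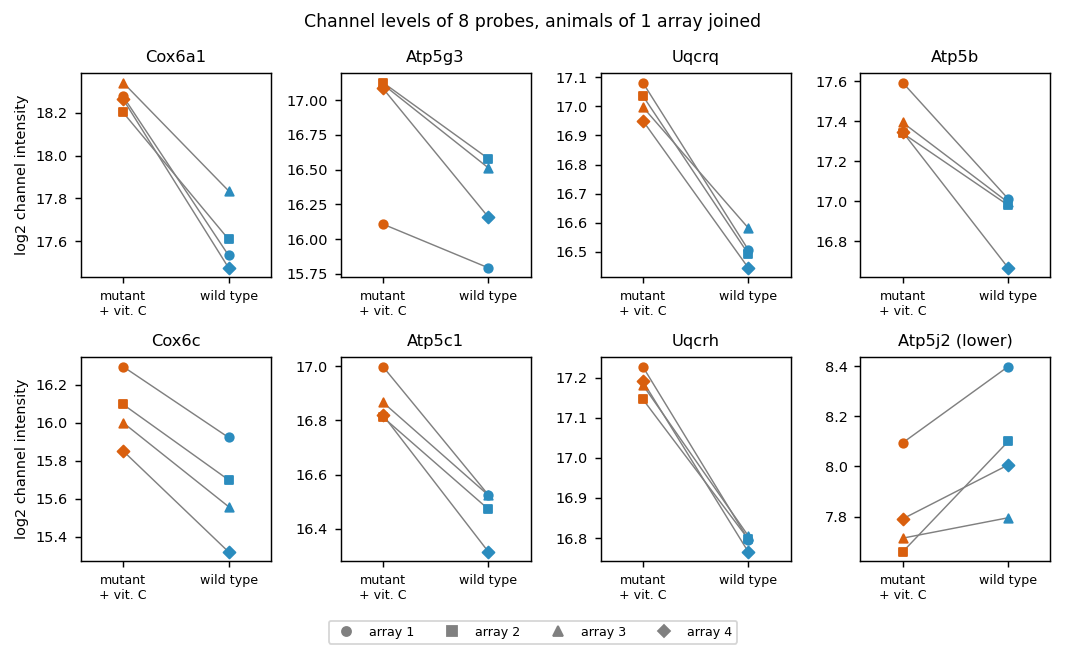
Log2 channel intensity of 8 called probes in the mutant livers with vitamin C (left) and the wild-type livers (right), with the livers of each array joined by a line. For Cox6a1 the mutant livers span 18.20 to 18.34 and the wild-type livers 17.48 to 17.84, whereas for Cox6c, Atp5g3 and the lower Atp5j2 probe the groups overlap and only the paired differences keep one direction.

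Taken as single-channel levels, 13 of the 68 members had all 4 mutant livers above all 4 wild-type livers, and 0 had them all below. Over all probes with levels on every array the shares were 2.88% above and 4.26% below. Of the 13, 10 were among the 15 called higher, and the other 3 were Uqcr11, the highest Cycs probe and Atp5e, which did not pass the test of the ratios. These levels are open to dye bias, since each group was always read in the same dye.

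Of the 49 genes tested, 14 had several probes. A called-higher probe was found in 14 genes, of which 8 had only that probe, Uqcrh was higher on each of its probes, and 5 (Uqcrq, Atp5a1, Atp5b, Atp5h and Atp5j2) were higher on some of theirs. With the probes of a gene averaged, 10 genes were higher and 0 lower, beside 5.38% of all genes higher and 4.36% lower. All 15 called-higher probes were among the 61 annotated to a RefSeq mRNA, and of 7 annotated to other transcripts 0 were higher and 1 was lower. Those 7 lay at the 22.6th to 89.0th percentile of brightness, except Atp5c1-ps at 97.2. Of the 18 members outside the brightest decile, 1 was called higher. The part of brightness in this split was not tested, and shares over all probes by annotation were not counted.

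**Figure D3:**
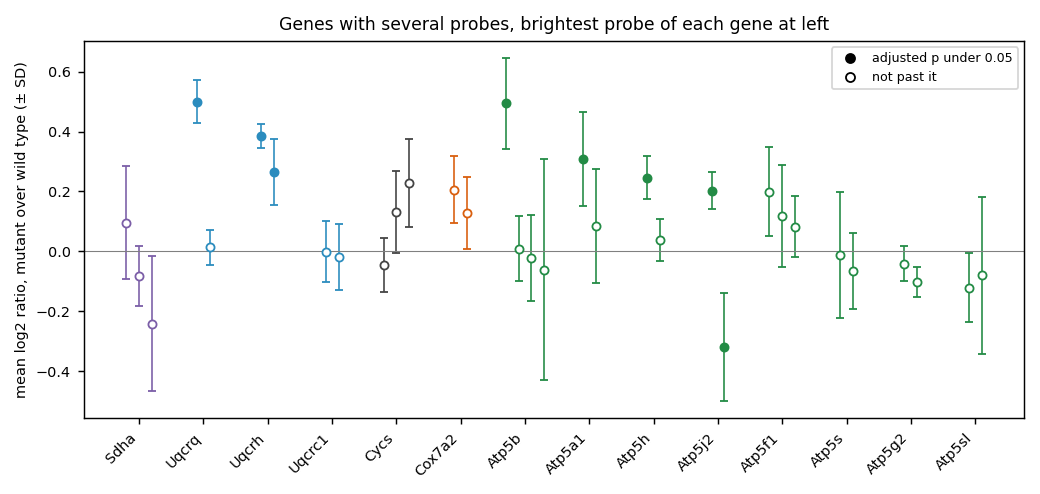
Mean log2 ratio, mutant over wild type, with SD over 4 arrays, for each probe of the 14 genes with several probes, ordered left to right by brightness within a gene (filled: adjusted p under 0.05). The brightest probe is the only filled one in Uqcrq, Atp5b, Atp5a1 and Atp5h. Both probes are filled in Atp5j2, where the dimmer one lies below 0 at -0.32.

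Members were bright probes: 50 of 68 lay in the brightest decile of all tested probes, and 14 of those 50 (28%) were called higher, beside 8.42% of all probes in that decile. None of the 50 was lower, beside 10.4% of all. The member median there was 0.13, against -0.01 over all probes of the decile. Of the 18 dimmer members 1 was higher, Cox7b2, and their median was -0.0071. Across the 68 member probes, which share arrays and normalisation, the mean ratio and brightness had Pearson's r = 0.506 and Spearman's rho = 0.509. Across all tested probes r was -0.0089. The base composition of the probe had r = -0.09 with the member ratio.

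This brightness bears on the scaling. The deposited ratios were levelled by loess, which sets the ratio near 0 at each brightness. With each array centred on its median instead, all probes of the brightest decile had a median of 0.20, the members in it had 0.53, and 42 of 68 members were called higher, beside 11% of all probes. Over all probes the same centring gave 4292 higher and 3011 lower, in place of 2345 higher and 2469 lower. With the scanner software's own dye normalisation, 2 members (Cox6a1 and Uqcrq) were called higher and 0 lower, beside 1.25% of all probes higher.

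**Figure D4:**
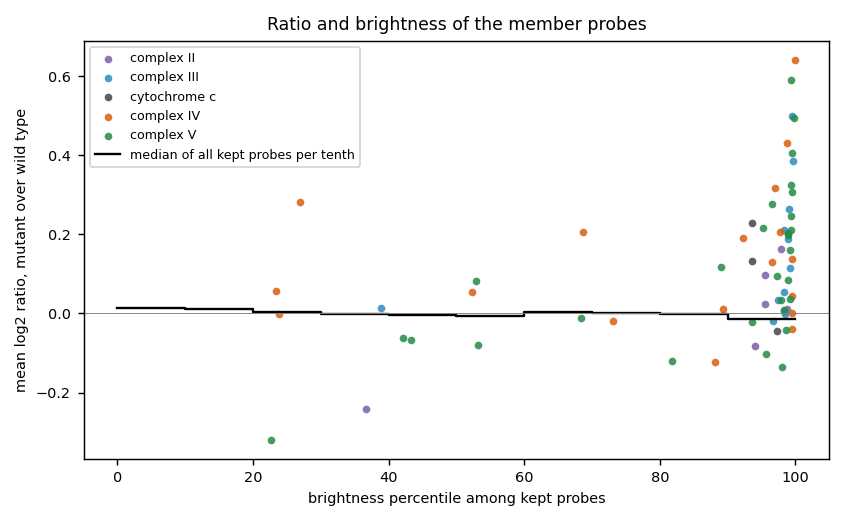
Mean log2 ratio, mutant over wild type, against the brightness percentile of each of the 68 member probes (colours: complex), with the median of all tested probes in each decile of brightness (black line, between -0.01 and 0.01). In the brightest decile, 14 of 50 members are called higher and their median is 0.13, and the lowest point is the dim Atp5j2 probe at -0.32.

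Nuclear respiratory genes are known targets of the factors NRF1 and GABPA, so the promoters of the members were searched. RefSeq promoter sequence (250 bases before the start site, build GRCm38.p6) was at hand for 38 member genes, 11 of which had a called-higher probe. The palindromic NRF1 core, searched on both strands, was present in 3 (7.9%), beside 0.9% of 27025 genes. Those were Cox6a1 and Atp5k, which were called higher, and Atp5g2, which was not, and they are printed here 5′ to 3′ with the NRF1 motif, and in Cox6a1 also the ETS motif close to the start site, in capitals.

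Cox6a1, chr5:115348959-115349208, minus strand: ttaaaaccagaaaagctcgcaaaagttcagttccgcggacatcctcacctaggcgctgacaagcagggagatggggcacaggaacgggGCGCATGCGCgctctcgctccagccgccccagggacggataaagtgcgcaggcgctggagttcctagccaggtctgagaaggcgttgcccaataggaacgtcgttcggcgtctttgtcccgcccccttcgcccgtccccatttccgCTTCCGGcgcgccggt
Atp5k, chr5:108434400-108434649, minus strand: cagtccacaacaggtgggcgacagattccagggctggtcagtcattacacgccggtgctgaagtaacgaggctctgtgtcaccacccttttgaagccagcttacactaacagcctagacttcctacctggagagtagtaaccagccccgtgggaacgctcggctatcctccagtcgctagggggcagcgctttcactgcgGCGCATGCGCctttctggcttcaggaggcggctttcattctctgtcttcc
Atp5g2, chr15:102671048-102671297, minus strand: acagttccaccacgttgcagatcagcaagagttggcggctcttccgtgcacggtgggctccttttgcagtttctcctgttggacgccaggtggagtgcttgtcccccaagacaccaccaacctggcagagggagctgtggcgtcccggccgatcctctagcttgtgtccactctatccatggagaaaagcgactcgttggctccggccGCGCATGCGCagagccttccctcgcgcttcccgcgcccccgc

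The ETS motif CCGGAAG, which GABPA recognises, was present in 9 of the 38 promoters (23.7%, beside 7.8% of all genes) and in 4 of the 11 with a called-higher probe, those of Uqcrh, Cox6a1, Atp5h and Atp5j. The YY1 motif was present in 1 (2.6%, beside 0.2%), and the Sp1 motif GGGCGG in 12 (31.6%, beside 35.4%). None of the 4 motifs holds another within it, though matches can overlap on a promoter. A match is a description of the sequence, and no match says only that the letters are absent from this window.

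A list of 15 factors, which act on nuclear respiratory genes or copy and transcribe mitochondrial DNA, was measured with 33 probes. At an unadjusted p under 0.05 (limma) 13 probes passed in either direction. Over all 39080 probes, 4814 were called after adjustment and 7945 more passed only unadjusted. After adjustment 0 of the 33 were higher and 4 were lower, beside 6% and 6.32% of all probes. The lower ones were 2 of 3 probes of Hcfc1, a chromatin-bound cofactor, at -0.34 and -0.36, 1 of 2 probes of Peo1, the mitochondrial DNA helicase, at -0.35, and Pprc1, a PGC-1-related coactivator, at -0.52. Their adjusted p-values were 0.019, 0.025, 0.032 and 0.035. Nrf1 itself averaged -0.15 and -0.11 on its probes, with adjusted p = 0.081 and 0.26, and Ppargc1a, the coactivator PGC-1alpha, averaged 0.08 and 0.17, with adjusted p = 0.47 and 0.094. The median over the 33 probes was -0.07.

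Of 32 assembly and stability factors on the array, 9 of 59 probes were higher and 4 lower, from 6 and 3 genes. Beside these counts, 6% of all probes were higher and 6.32% lower. The median over the 59 probes was 0.05. Cox16, a factor for the assembly of cytochrome oxidase, was higher on 4 of its 5 probes, at 0.31 to 0.36. Atpaf1, which helps form the ATP synthase head, was higher on 1 dim probe at 0.28 (adjusted p = 0.028), while its 2 brighter probes read -0.15 and 0.07 (adjusted p = 0.33 and 0.34). Its partner Atpaf2 was lower on 1 of 2 probes, at -0.28 (adjusted p = 0.031), and the other read -0.06 (adjusted p = 0.51). Usmg5, a small protein found with ATP synthase, was higher at 0.27 (adjusted p = 0.036). Coa5, another oxidase assembly factor, was lower on 1 of 3 probes, at -0.26 (adjusted p = 0.035), and its others read 0.15 and 0.11 (adjusted p = 0.16 and 0.37). Lrpprc, which stabilises mitochondrial mRNA, was lower on both tested probes, at -0.25 and -0.23.

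The subunits of complexes III to V encoded by mitochondrial DNA were represented by 3 probes of 2 genes. Of the probes for ATP6, a membrane subunit of ATP synthase, one gave 0.12, 0.21, 0.34 and 0.31 (mean 0.25 ± 0.10, adjusted p = 0.039), and the other gave 0.13, 0.05, 0.24 and 0.18 (mean 0.15, adjusted p = 0.11). All 8 ratios were above 0. COX2, a catalytic subunit of cytochrome oxidase, was at 0.04, 0.01, -0.0099 and 0.11 (mean 0.04, adjusted p = 0.62).

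The calls rested on having all 4 arrays. Leaving out 1 array in turn left 0 to 9 members called higher, with 9 without array 1, 0 without array 2, 6 without array 3 and 7 without array 4. The shares of all probes called higher were then 1.11%, 0.0102%, 1.81% and 0.801%. Without array 2, 12 probes were called among all 39080, and 21 members were higher at an unadjusted p under 0.05. With the channels of an array treated as unpaired samples, 0 members were called, beside 0.0409% of all probes higher. In that setting 12 members were higher at an unadjusted p under 0.05. The share of all probes at an unadjusted p was not counted without array 2 or with unpaired channels. The settings that left 14 to 16 members higher called 6.19% of all probes higher with normexp, 6.9% with a stricter filter and 4.61% with none. Those shares were 8.14% with an intensity trend, 6.03% with robust eBayes, 6.31% with array weights, 5.97% with flagged spots kept and 4.63% by the authors' deposited adjusted p.

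**Figure D5:**
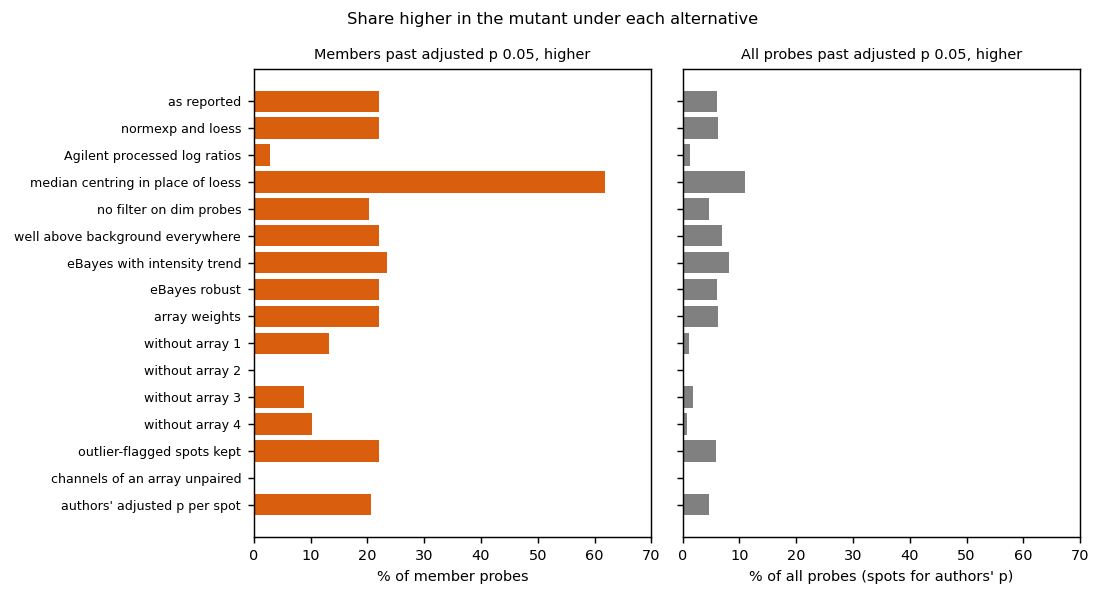
Percent of tested member probes (left, orange) and of all tested probes (right, grey) called higher in the mutant at an adjusted p under 0.05, for the reported values and each alternative processing (rows). The member share is 22.1% as reported and runs from 0 without array 2 and with unpaired channels to its highest with median centring, where 42 of 68 are called.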

How the data were processed

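Liver RNA of 4 mutant and 4 wild-type mice was hybridised in 4 pairs. Spot intensity, read with Agilent Feature Extraction 10.5.1.1 per the file headers, was deposited with the scanner's log10 ratio. The authors' deposited table gives log2 ratios by array, a p-value before and after adjustment, and scores (a moderated statistic and log odds); the submitters' processing notes name limma. Those log2 ratios matched background subtraction and loess of the scanner values with a slope of 1 and r of 1 on each array.

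The ratios were averaged per probe and tested here with lmFit and eBayes (limma 3.58.1, R 4.3.3), with Benjamini-Hochberg adjustment over 39080 probes. A probe was kept if well above background in Cy5 or in Cy3 on at least 3 arrays. The ratio of a probe was dropped on an array where all of its spots were outlier-flagged. Flagged spots of a probe with an unflagged copy stayed in the averaged ratio. For the members, 0 spots were flagged and none was saturated. Spots well above background made up 82.8% of the mutant channel and 84.5% of the wild-type channel on array 1. On arrays 2 to 4 they made up 94.5% to 95.7% and 95.1% to 96.2%. Depth is not counted on arrays; the 4 arrays limit the precision. Channel levels used normexp (offset 50), loess and Aquantile on median intensities; brightness ranks probes by signal and does not compare transcript amounts. Genes carry the deposited symbols; all 50 were found in a RefSeq gene table. On simulated data for this comparison (39080 probes) the test found 0% of changes of 1.2-fold and 18% at 1.3-fold. It found 72% at 1.5-fold and 84% at 2-fold, and false calls made up 5.43%. The simulation changed far fewer probes than were called in the data, so its cut-off was stricter. These shares therefore do not give the power of the real test, in which members of 1.15-fold were called. The pairing of mutant and wild type comes from the array they share. Members and lists were chosen with earlier results of these data known. Values by array are given for called probes, the highest and lowest probe of each complex, genes whose probes differ by over 0.5 and tissue isoforms; for the lists, up to 3 called genes a direction.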

Additional observations from a re-analysis of the deposited data

Results flagged for a closer look

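Of 35 probes whose ratios are given by array, 2 had 1 array far from the other 3, where chance marks about 1 in 20 groups. The called Atp5a1 probe read 0.5423 on array 4, against 0.22 to 0.24 on the others, and the gap took 0.915 of its whole range. The second brightest Atp5b probe, which did not pass the test, read 0.1703 on array 4, against -0.06 to -0.03 on the others, with a gap of 0.839 of the range. Both lie on the array that held the highest ratio of 40 of the 68 members, and their cause was not tested.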

How the results depend on the processing

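The 15 higher and 1 lower member calls were 15 and 1 with normexp, with the stricter filter, robust eBayes, array weights and outlier-flagged spots kept (the last added after seeing the data). Agilent's processed log ratios gave 2 higher and 0 lower, median centring 42 and 1, no filter 14 and 0, an intensity trend 16 and 0, and the authors' adjusted p 14 and 0. At an adjusted p under 0.01 the counts were 0 and 0, and under 0.1 they were 25 and 1. Counted by gene, the mean of probes gave 10 and 0, and the brightest probe 14 and 0. Shares over all probes at these cut-offs, and over all genes by brightest probe, were not counted, so those member counts have no background here. Without the replicate block that pairs the channels of an array, the counts were 0 and 0, with a smallest adjusted p of 0.0727. Leaving out 1 array gave 0 to 9 higher and 0 to 1 lower. Median centring moved the member median to 0.39, and those of complexes II, III, IV, V and cytochrome c to 0.27, 0.52, 0.36, 0.39 and 0.28. It also turned Cox4i1 to 0.50. Other settings left the median of all members within 0.06 to 0.14; that of complex II was -0.02 with Agilent's ratios and -0.04 to 0.06 with 1 array left out. Ranges with 1 array left out were 0.06 to 0.10 for all members, 0.06 to 0.13 for III, 0.07 to 0.12 for IV, 0.07 to 0.11 for V and 0.08 to 0.18 for cytochrome c.

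Assembly factors, 9 higher and 4 lower, were 0 and 1 with Agilent's ratios, 18 and 2 with median centring, 11 and 1 with the trend, 0 and 0 without the replicate block, and 0 to 5 and 0 to 1 with 1 array left out. Mitochondrial DNA subunits of complexes III to V, 1 higher, were 0 with Agilent's ratios and 3 with median centring. They were 0 without the replicate block and 0 with any array left out. Regulators, 0 higher and 4 lower, were 0 and 2 with Agilent's ratios, 3 and 4 with median centring, 1 and 4 with the trend, 0 and 0 without the replicate block, and 0 to 1 and 0 to 2 with 1 array left out. The cause was not tested, except that leaving out an array leaves fewer values to test.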
